A study of Danio rerio with 12 samples.

Results

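The effect of SB431542 on larval zebrafish tails that had not been operated on was measured in 6 of the series' 12 RNA libraries. Pools of 100 tail ends from wild-type larvae were compared, 3 pools kept in 50 µM SB431542 from 72 to 90 h post fertilization (replicates 2, 3 and 4) and 3 kept in the vehicle, 0.1% dimethyl sulfoxide (DMSO), over the same hours (replicates 1, 2 and 4). About 200 µm of the tail was collected at 90 h, after 18 h of treatment. The other 6 libraries hold the regrowing ends of tails cut at 72 h, under the same treatments, and entered the same model. The labels do not say that pools of a group came from separate clutches, so a p-value here reflects only how much pools varied, part of which may be technical. Of 30258 genes in the deposited table, 13978 passed a filter on low counts and were tested, and every difference below is SB431542 minus DMSO.

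SB431542 is a small molecule that inhibits the kinases ALK4, ALK5 and ALK7, which are type I receptors. TGF-β, activin and nodal ligands signal through these receptors to Smad2 and Smad3, which enter the nucleus with Smad4 and act on target genes that include inhibitory Smads and matrix genes. In adult zebrafish the compound is known as a blocker of fin regeneration. Uncut tails ask what it does to tissue that is growing but has no wound.

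Total counts of the 6 libraries ran from 7494176 to 12914981. Levels are in CPM, which divides each count by the library total, scaled by the trimmed mean of M-values, and library values are given in the order replicates 1, 2 and 4 for DMSO and 2, 3 and 4 for SB431542. The library of SB431542 replicate 4 lay apart. It correlated with the other libraries at a median of 0.905, where each of those reached 0.934 to 0.944, and a model that weights libraries by their fit gave it 0.267, against 0.640 to 1.98 for the rest. The main results are therefore also given without it. Tail tissue was present in every library: summed levels were 193264 to 223552 CPM for 50 skeletal muscle genes and 4335 to 6957 CPM for 22 notochord genes. Genes of lens and retina summed to 1.21 to 3.07 CPM and those of exocrine pancreas to 8.14 to 14.98 CPM. In such bulk tissue, fewer cells of a type and less RNA per cell cannot be told apart.

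Few genes passed the test. By edgeR's quasi-likelihood test with Benjamini-Hochberg adjustment, 7 genes were higher and 1 was lower with SB431542 at an adjusted p under 0.05, which is 0.0501% and 0.00715% of those tested (0.0572% in either direction), and all 8 differed by at least 2-fold. Without SB431542 replicate 4, 4 genes were higher (0.0276%) and 1 lower (0.00691%), 0.0345% of 14480 in either direction, and 3 genes were called in both fits. At an unadjusted p under 0.05, 1381 genes were higher (9.88%) and 827 lower (5.92%). DESeq2 called more from the same counts, 265 higher and 60 lower (1.9% and 0.429%), and 70 and 16 without SB431542 replicate 4 (0.483% and 0.11%). The number of edgeR calls turned on single libraries: 405 higher and 160 lower were called without SB431542 replicate 3, and 0 higher without any 1 of the 3 uncut DMSO libraries. Leaving out a cut library, which is outside the contrast, also moved it. There were 1 higher without cut DMSO replicate 1 and 22 without cut DMSO replicate 4.

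An uncoupling protein gene, UCP2, had the lowest edgeR adjusted p of the genes called higher. UCP2 (ENSDARG00000043154) is a carrier of the inner mitochondrial membrane, in a family named for letting protons back into the matrix. It stood at 23.2, 24.98 and 23.4 CPM with DMSO and at 85.1, 74.6 and 98.6 CPM with SB431542. The 3 vehicle libraries were nearly level, and the lowest SB431542 library lay far above them. UCP2 rose 3.61-fold, a log2 fold change of 1.85 ± 0.25 (SE) at an edgeR adjusted p of 0.00622, and 3.34-fold without SB431542 replicate 4 (adjusted p = 0.0124). Leaving out 1 of the other 5 uncut libraries gave edgeR adjusted p-values from 0.00313 to 0.106, those above 0.05 coming with the loss of a DMSO library.

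The related carrier gene ucp3 (ENSDARG00000091209) stood at 13.02, 10.9 and 10.5 CPM with DMSO and at 52.1, 21.8 and 32.5 CPM with SB431542. Every SB431542 library was above every DMSO library, with replicate 2 the highest. It rose 3.102-fold (log2 1.63 ± 0.29, edgeR adjusted p = 0.0484), and the adjusted p was 0.0537 without SB431542 replicate 4. Without SB431542 replicate 2 the log2 fold change of ucp3 was 1.25 (edgeR adjusted p = 0.0909). Without uncut DMSO replicate 1, 2 or 4 its edgeR adjusted p was 0.142, 0.278 or 0.201. Of 12 tested genes on a list of uncoupling proteins and mitochondrial carriers, edgeR called these 2 higher and 0 lower. Over all tested genes, 0.0501% were called higher and 0.00715% lower. On the list 7 of 12 members were above 0, against 50.4% of all tested genes. The list's median log2 fold change was 0.23, or 0.17 without SB431542 replicate 4, beside 0.0058 and -0.030 for all tested genes. UCP1 (ENSDARG00000023151), the thermogenic member in mammals, had a log2 fold change of 0.24 (edgeR adjusted p = 0.679), or 0.28 without SB431542 replicate 4 (0.768).

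The other called genes with a known role act in redox chemistry, sterol synthesis and light-driven DNA repair. GLRX5 (ENSDARG00000043665), a mitochondrial glutaredoxin of iron-sulphur cluster assembly, stood at 13.9, 16.8 and 16.7 CPM with DMSO and at 39.9, 26.2 and 42.4 CPM with SB431542. The groups did not overlap, and it rose 2.29-fold (log2 1.19 ± 0.21, edgeR adjusted p = 0.0484). AIFM2 (ENSDARG00000077549), an oxidoreductase that regenerates reduced coenzyme Q and protects membranes from lipid peroxidation, stood at 2.39, 2.86 and 2.70 CPM with DMSO and at 8.26, 6.81 and 12.7 CPM with SB431542. It rose 3.50-fold (log2 1.81 ± 0.31, edgeR adjusted p = 0.0484), again with no overlap. Without SB431542 replicate 4, which was the highest library for both genes, the edgeR adjusted p-values were 0.0781 for GLRX5 and 0.0920 for AIFM2. Without SB431542 replicate 2 they were 0.0909 for GLRX5 and 0.0828 for AIFM2.

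MSMO1 (ENSDARG00000055876), a methylsterol oxidase of cholesterol synthesis, was scarce, at 0.266, 0.286 and 0.867 CPM with DMSO and at 3.77, 2.96 and 6.95 CPM with SB431542. These levels rest on 2 to 69 reads per library. MSMO1 rose 8.96-fold (log2 3.16 ± 0.57, edgeR adjusted p = 0.0484), and without SB431542 replicate 4 the difference was 6.57-fold (adjusted p = 0.0930). Without DMSO replicate 4 its log2 fold change was 4.00 (edgeR adjusted p = 0.102), and without SB431542 replicate 2 it was 3.29 (0.0866). The photolyase-family gene cry-dash (ENSDARG00000002396), whose protein repairs ultraviolet lesions in single-stranded DNA with blue light, stood at 8.37, 8.99 and 10.1 CPM with DMSO and at 50.6, 17.9 and 27.0 CPM with SB431542. SB431542 replicate 2 was the highest and replicate 3 the lowest of its group, still above all DMSO libraries. It rose 3.47-fold (log2 1.80 ± 0.31, edgeR adjusted p = 0.0484, and 0.0537 without SB431542 replicate 4).

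C11H1orf50 (ENSDARG00000071211) stood at 6.11, 5.28 and 7.80 CPM with DMSO and at 39.7, 15.1 and 17.7 CPM with SB431542. It rose 3.75-fold (log2 1.91 ± 0.33, edgeR adjusted p = 0.0484) and 4.26-fold without SB431542 replicate 4 (adjusted p = 0.0166), and the groups did not overlap. Without SB431542 replicate 2 its log2 fold change was 1.35 (edgeR adjusted p = 0.0909). The 1 gene that fell has an identifier with no symbol, ENSDARG00000110075. It stood at 5.05, 2.28 and 1.64 CPM with DMSO and had 0 counts in all 3 SB431542 libraries. Against a floor of 3 counts per library it was at least 6.73-fold lower (edgeR adjusted p = 0.00622, and 0.0124 without SB431542 replicate 4). MSMO1 and this identifier were below the mean of 5 CPM or lacked the symbol that the rule for named genes asks for, and are named because they complete the 8.

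**Figure D1:**
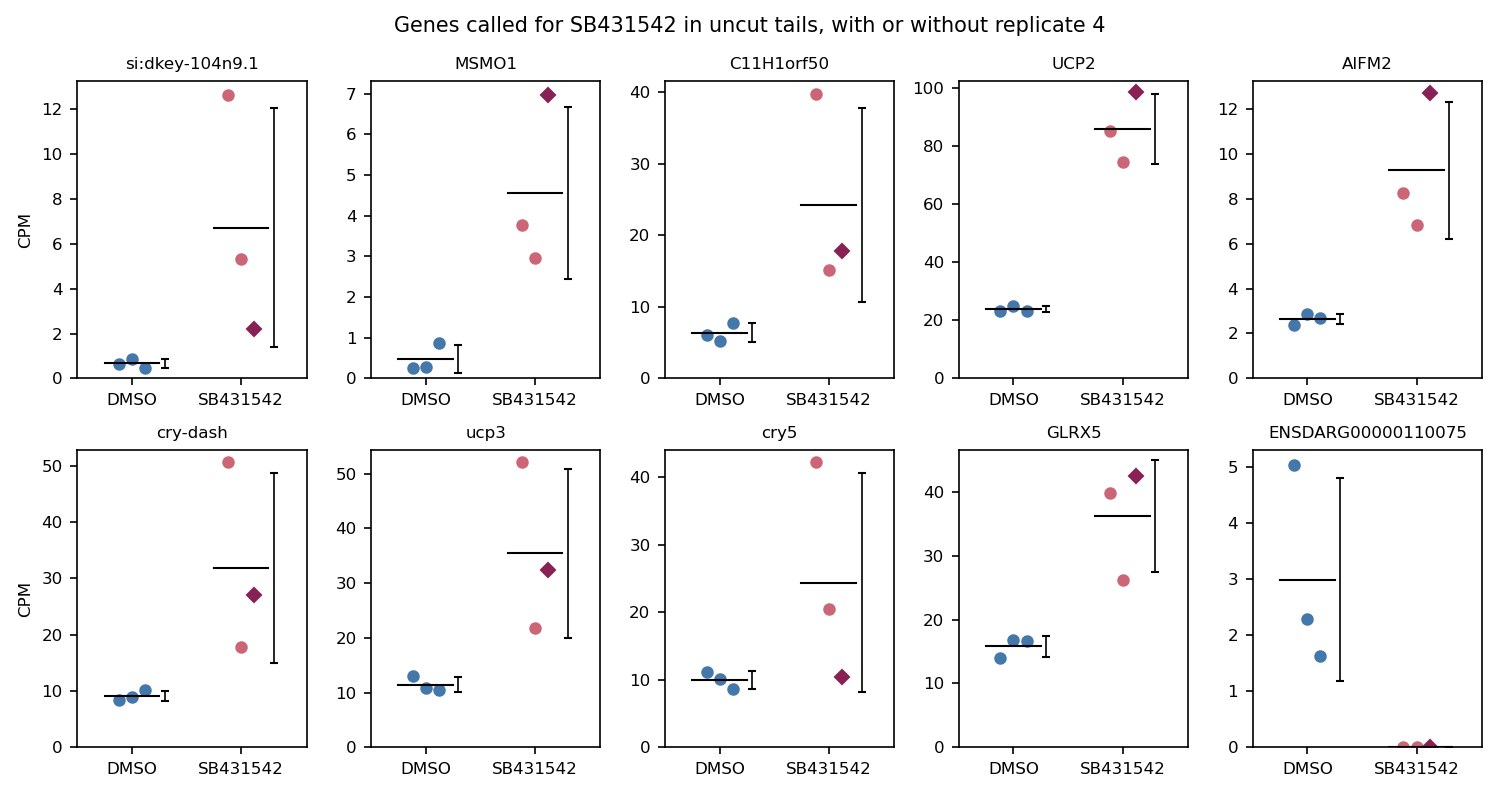
CPM (linear axis from 0) of the 10 genes called by edgeR with all libraries or without SB431542 replicate 4, in the 3 DMSO and 3 SB431542 uncut libraries; horizontal lines are means, bars at the side are SDs over 3 libraries, and the diamond is SB431542 replicate 4. UCP2 is between 23.2 and 24.98 CPM with DMSO and between 74.6 and 98.6 CPM with SB431542, while cry5 in replicate 4, at 10.5 CPM, lies within the DMSO range.

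A further 2 genes passed edgeR's test when SB431542 replicate 4 was left out. The photolyase-family gene cry5 (ENSDARG00000019498), a light-induced repair enzyme in zebrafish, stood at 11.2, 10.1 and 8.57 CPM with DMSO and at 42.2, 20.4 and 10.5 CPM with SB431542. Replicates 2 and 3 were above the DMSO libraries and replicate 4 was among them. With all libraries its log2 fold change was 1.29 ± 0.38 (edgeR adjusted p = 0.144), and without replicate 4 it rose 3.16-fold (adjusted p = 0.0126). Without SB431542 replicate 2 the log2 fold change of cry5 was 0.62. The clone-named gene si:dkey-104n9.1 (ENSDARG00000093042) stood at 0.664, 0.857 and 0.481 CPM with DMSO and at 12.6, 5.33 and 2.22 CPM with SB431542. Its edgeR adjusted p was 0.0736 with all libraries and 0.0124 without replicate 4, and its log2 fold change went from 3.34 to 2.48 without replicate 2.

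DESeq2 called 56 genes higher and 11 lower both with all libraries and without SB431542 replicate 4. For 54 of the higher and all 11 of the lower genes the 6 libraries did not overlap, against 9.48% and 8.43% of all tested genes (13.1% and 14.3% without replicate 4). The same libraries chose these genes, so the lack of overlap is a description and no further evidence for the calls. Each other uncut library was also left out in turn, and 27 of the higher and 5 of the lower genes were called in every DESeq2 fit. SB431542 replicate 2 held the highest SB431542 level for 34 of the 56, replicate 4 for 21 and replicate 3 for 1. Over all tested genes, replicate 2 was highest for 28.7% and replicate 4 for 42.8%, and replicate 3 for 3974 of 13978. The 56 had to be called without replicate 4 as well, which bears on these counts, so they are a description. Genes named from this set were chosen after their values were seen, apart from members of the lists.

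**Figure D2:**
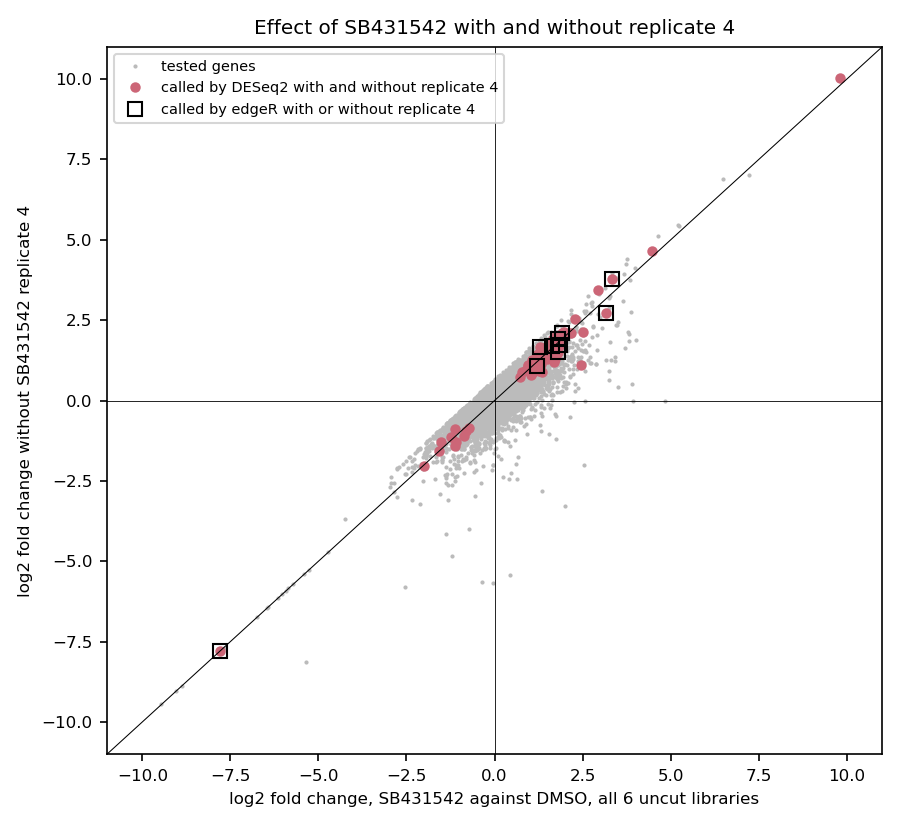
Log2 fold changes of SB431542 against DMSO over all 6 uncut libraries (horizontal axis) and without SB431542 replicate 4 (vertical axis) for the tested genes, with the line of equal values; filled circles are genes called by DESeq2 in both and open squares genes called by edgeR in either. The 67 filled circles have the same sign on both axes, and points far below the line at the right are genes whose value falls when replicate 4 is left out.

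Genes called in every DESeq2 fit had varied roles, and those described next were picked by hand after their values were seen. The subunit gene ndufa4b (ENSDARG00000056108) of the respiratory chain stood at 22.6, 11.99 and 13.7 CPM with DMSO and at 59.2005, 28.3 and 76.5 CPM with SB431542. It was higher by 3.41-fold in edgeR's fit (adjusted p = 0.0736). The DESeq2 adjusted p was 0.000596, and 0.00751 without replicate 4. PMPCB (ENSDARG00000016979), which cleaves the import signal off mitochondrial proteins, stood at 25.5, 17.1 and 20.7 CPM with DMSO and at 50.4, 31.8 and 57.3 CPM with SB431542. The groups did not overlap (DESeq2 adjusted p = 0.00218, edgeR 0.0713). The threonine dehydrogenase gene tdh (ENSDARG00000002745) stood at 52.3, 58.7 and 60.9 CPM with DMSO and at 127, 84.2 and 225 CPM with SB431542. SB431542 replicate 4 was the highest by far, and the fold of tdh fell from 2.54 to 1.85 without it (DESeq2 adjusted p = 0.00113 and 0.0133). Others were MRPL10, a protein of the mitochondrial ribosome, 2.48-fold higher (DESeq2 adjusted p = 0.00158), hax1, an anti-apoptotic mitochondrial protein, 3.31-fold higher (0.000742), and ABHD10 (ENSDARG00000076435), a mitochondrial thioesterase, 2.83-fold higher (0.00228).

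Lists of other mitochondrial genes had medians near 0. Of 57 enzymes of the citric acid cycle and of fatty acid, ketone and amino acid use, edgeR called 0. DESeq2 called bckdhbl alone (adjusted p = 0.0400, and 0.154 without SB431542 replicate 4), beside 1.9% of all tested genes called higher. The enzymes' median log2 fold change was 0.11, or 0.04 without SB431542 replicate 4. For 69 subunits of oxidative phosphorylation the median was -0.02, or -0.03 without that library, and edgeR called 0. DESeq2 called 3 of them higher with all libraries and 0 without replicate 4 (1.9% and 0.483% of all tested genes). The respiratory chain gene ndufa4b, which DESeq2 called in every fit, is not on this list. ISCU (ENSDARG00000035596), the scaffold on which iron-sulphur clusters are built, stood at 39.7, 40.5 and 44.6 CPM with DMSO and at 76.9, 62.7 and 68.0 CPM with SB431542. The groups were well separated, by 1.66-fold (DESeq2 adjusted p = 0.00735 with all libraries and 0.0250 without replicate 4, edgeR 0.0832). Its DESeq2 call was lost without DMSO replicate 1 or 2 or SB431542 replicate 2.

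Further genes higher in every DESeq2 fit were picked in the same way. NPC2 (ENSDARG00000090912), which moves cholesterol out of lysosomes, stood at 18.5, 9.14 and 15.02 CPM with DMSO and at 49.8, 30.5 and 50.5 CPM with SB431542, with no overlap (3.06-fold, DESeq2 adjusted p = 0.00218). RHCG (ENSDARG00000007080), an ammonia channel of ionocytes, stood at 9.43, 4.85 and 6.26 CPM with DMSO and at 24.9, 12.9 and 29.7 CPM with SB431542 (3.30-fold, DESeq2 adjusted p = 0.00218). It was the 1 of 19 tested ionocyte and mucous cell genes that DESeq2 called (1.9% of all tested genes were called higher). The median log2 fold change of the 19 was 0.02. A second RHCG identifier, ENSDARG00000003203, had 48, 34 and 169 reads with DMSO and 210, 128 and 216 with SB431542, before scaling. Its log2 fold change ran from 0.93 to 1.95 over 31 fits, and it was called in 3 of them. PLA2G6, a phospholipase, was 2.52-fold higher, CACNA2D3 (ENSDARG00000078760), a calcium channel subunit, 5.72-fold, and cst3, a cystatin that inhibits cathepsins, 2.09-fold, at DESeq2 adjusted p-values of 0.00250, 0.000742 and 0.00333. PAOX (ENSDARG00000003380), a polyamine oxidase, had 0 counts in all 3 DMSO libraries and 20.9, 6.81 and 8.16 CPM with SB431542. Against a floor of 3 counts per DMSO library it was at least 27.9-fold higher (DESeq2 adjusted p = 0.000802, edgeR 0.146). A second identifier with the symbol PAOX, ENSDARG00000109596, ran the other way, at 7.17, 5.85 and 5.78 CPM with DMSO and 0 counts in all 3 SB431542 libraries (edgeR adjusted p = 0.122, DESeq2 0.235). Reads may be split between such copies in counting, so the value for PAOX is uncertain.

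Circadian clock and light-responsive genes had a median above that of all tested genes. Of 33 tested members, edgeR called 0, or 1 (cry5) without SB431542 replicate 4, beside 0.0572% and 0.0345% of all tested genes. DESeq2 called 5 members higher and 0 lower (1.9% and 0.429% of all tested genes), or 3 and 0 without that replicate (0.483% and 0.11%). The median log2 fold change was 0.42, or 0.27 without that library, and 23 of 33 members were above 0 (50.4% of all tested genes were). The clock output factor gene tefa (ENSDARG00000039117) stood at 32.9, 20.8 and 18.97 CPM with DMSO and at 119, 53.0 and 54.6 CPM with SB431542. The groups did not overlap, and tefa was 3.12-fold higher (DESeq2 adjusted p = 0.000742, edgeR 0.0735), a call that held in every DESeq2 fit. DDB2, which detects ultraviolet damage, stood at 27.096, 26.1 and 13.5 CPM with DMSO and at 76.7, 41.3 and 35.5 CPM with SB431542 (2.31-fold, DESeq2 adjusted p = 0.0148, edgeR 0.0980). Its DESeq2 call was lost without DMSO replicate 4 or SB431542 replicate 2.

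Libraries differed in these genes, and the labels do not give the time of day at which each pool was collected. The members' median deviation from the DMSO mean on the log2 CPM scale was 0.54 in SB431542 replicate 2, 0.25 in replicate 3 and 0.10 in replicate 4, and 0.17, 0.14 and -0.24 in the DMSO libraries. SB431542 replicate 4 thus lay inside the DMSO range. Off the list, lonrf4 (ENSDARG00000075048), a gene of the LON peptidase and RING finger family, stood at 19.3, 20.4 and 12.2 CPM with DMSO and at 97.3, 40.0 and 35.9 CPM with SB431542. It too was highest in replicate 2, and the groups did not overlap (3.35-fold, DESeq2 adjusted p = 0.000904, edgeR 0.0750). Its relative lonrf1 (ENSDARG00000078567) stood at 22.3, 10.99 and 8.47 CPM with DMSO and at 125, 33.7 and 44.9 CPM with SB431542 (4.91-fold, DESeq2 adjusted p = 0.00770, edgeR 0.117, and DESeq2 0.0166 without replicate 4). Its DESeq2 adjusted p was 0.103 without DMSO replicate 2. Over all fits run, the log2 fold change ranged from 1.48 to 2.81 for lonrf1 and from 1.11 to 2.01 for lonrf4. The part of the single library in these results was not tested beyond leaving it out: without SB431542 replicate 2, DESeq2 still called 31 of the 56 higher and 7 of the 11 lower genes.

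Genes that were lower included a matrix gene and genes of DNA replication. THBS3 (ENSDARG00000077641), a thrombospondin of tendon and cartilage matrix, stood at 26.2, 25.4 and 18.5 CPM with DMSO and at 8.73, 10.4 and 5.34 CPM with SB431542. It was lower by 2.88-fold with no overlap (log2 -1.53 ± 0.29, DESeq2 adjusted p = 0.000881, edgeR 0.0672), and DESeq2 called it in every fit. The splicing factor gene srsf10b stood at 41.2, 35.3 and 37.9 CPM with DMSO and at 15.6, 19.2 and 13.9 CPM with SB431542, 2.35-fold lower with no overlap (DESeq2 adjusted p = 0.00228, edgeR 0.0713). The clone-named gene si:ch211-266i6.3 was 2.96-fold lower (DESeq2 adjusted p = 0.00271). Among genes of epidermal cells, TGM1 (ENSDARG00000101407), a transglutaminase that crosslinks the envelope of surface keratinocytes, was 4.03-fold lower. The keratin gene krt94 was 1.84-fold lower (DESeq2 adjusted p = 0.00539 for TGM1 and 0.0264 for krt94). Their DESeq2 calls were lost without DMSO replicate 4, and that of krt94 also without DMSO or SB431542 replicate 2. TGM1 and krt94 are not on the list of 23 tested periderm genes, whose lowest log2 fold change was -0.73. On that list 3 lay above all DMSO libraries and 0 below them, against 9.48% and 8.43% of all tested genes. Of 19 basal epidermis genes, a list also without TGM1 and with a lowest log2 fold change of -0.88, 1 lay above and 5 below.

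Of 47 tested genes of DNA replication, edgeR called 0, and DESeq2 called 4 lower and 1 higher, beside 0.429% and 1.9% of all tested genes. Without SB431542 replicate 4 it called 3 lower and 0 higher, beside 0.11% and 0.483%. Above 0 were 20 of the 47, or 13 without that replicate, against 50.4% and 47.1% of all tested genes. LIG1 (ENSDARG00000060041), the ligase that joins Okazaki fragments, stood at 62.6, 71.0 and 59.9 CPM with DMSO and at 29.4, 40.4 and 18.6 CPM with SB431542. It was lower by 2.196-fold with no overlap (DESeq2 adjusted p = 0.00452, edgeR 0.0713), and its DESeq2 call was lost without DMSO replicate 2. Off the list, atad5a (ENSDARG00000070568), which unloads the sliding clamp from DNA, stood at 15.8, 14.0 and 14.4 CPM with DMSO and at 6.96, 5.03 and 8.57 CPM with SB431542. It was 2.13-fold lower (DESeq2 adjusted p = 0.00582) and was called in every DESeq2 fit. NASP, a histone chaperone, and MCM6 (ENSDARG00000057683), a subunit of the replicative helicase, were 1.75-fold and 1.64-fold lower at DESeq2 adjusted p-values of 0.0326 and 0.0478. Both calls were lost without SB431542 replicate 2 or any 1 DMSO library.

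Cell cycle and red blood cell genes separated the SB431542 libraries from one another. The median log2 fold change of the DNA replication genes was -0.22 with all libraries and -0.50 without SB431542 replicate 4. For 48 genes of mitosis and cytokinesis it was 0.02 with all and -0.49 without, with 0 called by edgeR in each. Their median deviation from the DMSO mean was -0.33 in SB431542 replicate 2, -0.43 in replicate 3 and 0.64 in replicate 4. Replicate 4 was thus on the other side of the DMSO libraries, which lay between -0.19 and 0.15. It held the highest of the 3 SB431542 levels for 44 of the 48 mitosis genes (91.7%), against 42.8% of all tested genes. With replicates 2 and 3 alone, 21 of the 48 were below all DMSO libraries, against 14.3% of all tested genes, and 4 with all 3. Of these genes DESeq2 called 1, TPX2, a spindle assembly factor, lower without replicate 4 (adjusted p = 0.0391, and 0.0555 with all libraries). Without replicate 4, DESeq2 called 0.11% of all tested genes lower.

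Erythrocyte genes were also highest in SB431542 replicate 4. The 17 tested members had a median deviation of -0.32, -0.22 and 0.57 in SB431542 replicates 2, 3 and 4. Their median log2 fold change went from 0.09 to -0.42 when replicate 4 was left out, and neither edgeR nor DESeq2 called any. Summed over 21 markers, the level was 2059 to 2504 CPM with DMSO and 1860, 2329 and 3963 CPM in SB431542 replicates 2, 3 and 4. The part of blood content in other results was not tested.

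**Figure D3:**
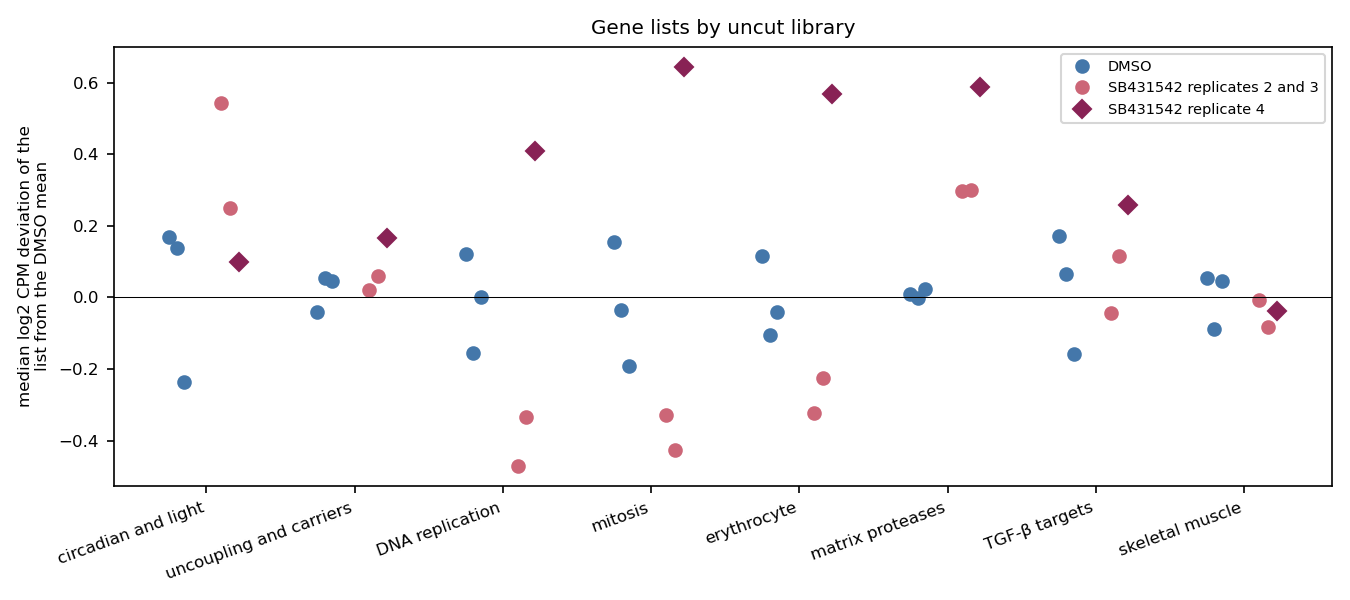
Median log2 CPM deviation from the mean of the 3 DMSO libraries, over the tested members of 8 gene lists, in each uncut library; diamonds are SB431542 replicate 4. The mitosis, DNA replication and erythrocyte lists lie below 0 in SB431542 replicates 2 and 3 and at 0.41 to 0.64 in replicate 4, and the circadian list is highest in replicate 2, at 0.54.

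Single genes also marked SB431542 replicate 4, and are given without a test because that library chose them. CCN2 (ENSDARG00000042934), a matricellular growth factor and known TGF-β target, stood at 22.1 and 13.8 CPM in SB431542 replicates 2 and 3, at 133 CPM in replicate 4 and at 8.76 to 20.6 CPM with DMSO. ANGPTL4, a secreted inhibitor of lipoprotein lipase, stood at 5.19, 5.03 and 57.7 CPM in SB431542 replicates 2, 3 and 4, and at 1.86 to 2.71 CPM with DMSO. PGK2 (ENSDARG00000054191), a phosphoglycerate kinase, stood at 38.0, 17.6 and 294 CPM, and at 8.42 to 15.1 CPM with DMSO. For both, replicates 2 and 3 also lay above all DMSO libraries. The lowest there against the other libraries of its group were ccdc80, at 44.3, 34.2 and 2.22 CPM, and OAT, an ornithine aminotransferase, at 21.8, 21.3 and 1.51 CPM.

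Genes of the pathway that SB431542 blocks gave 0 edgeR calls with or without replicate 4, beside 0.0572% and 0.0345% of all tested genes. With so few genes called anywhere, 0 calls on a short list say little about the pathway. Of 26 tested targets and feedback genes of TGF-β, the median log2 fold change was 0.12, or 0.02 without SB431542 replicate 4. Of the 26, 15 were above 0 (50.4% of all tested genes were). SMAD7, the inhibitory Smad, stood at 11.95, 8.99 and 10.01 CPM with DMSO and at 10.1, 7.10 and 9.07 CPM with SB431542. The groups overlapped (log2 -0.23, edgeR adjusted p = 0.686, and -0.25 and 0.780 without SB431542 replicate 4). TGFBI, a secreted matrix protein, stood at 476, 461 and 523 CPM with DMSO and at 396, 431 and 468 CPM with SB431542 (log2 -0.17, edgeR adjusted p = 0.613, and -0.24 and 0.654 without SB431542 replicate 4).

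Within that list the smallest adjusted p was that of POSTN (ENSDARG00000043806), a matricellular protein. It stood at 5.31, 5.43 and 3.37 CPM with DMSO and at 11.7, 8.14 and 22.7 CPM with SB431542, with no overlap. Its log2 fold change was 1.61 ± 0.37 (edgeR adjusted p = 0.0793, DESeq2 0.00837) and 1.09 without SB431542 replicate 4 (DESeq2 adjusted p = 0.194). The second POSTN identifier, ENSDARG00000104267, had lower levels in every SB431542 library, with a log2 fold change of -0.37 (edgeR adjusted p = 0.234). CCN2 had a log2 fold change of 2.04 ± 0.85 with all libraries and 0.39 without SB431542 replicate 4 (edgeR adjusted p = 0.286 and 0.821).

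Ligands and receptors were mostly below the count filter. Of 14 identifiers for TGF-β and activin ligands, 4 were tested and edgeR called 0, beside 0.0572% of all tested genes. The activin subunit gene INHBB (ENSDARG00000040777) stood at 2.26, 1.71 and 1.54 CPM with DMSO and at 4.25, 3.55 and 6.05 CPM with SB431542, with no overlap (DESeq2 adjusted p = 0.0437, edgeR 0.122). Without SB431542 replicate 4 its DESeq2 adjusted p was 0.340. The ligand gene tgfb1a had a log2 fold change of -0.04 (edgeR adjusted p = 0.956). Of 18 identifiers for receptors and Smads, 7 were tested, with a median log2 fold change of 0.27, or 0.01 without SB431542 replicate 4, and neither tool called any. ACVR1B (ENSDARG00000018968), the receptor ALK4, stood at 5.45, 4.85 and 3.76 CPM with DMSO and at 4.60, 5.48 and 12.6 CPM with SB431542, where replicate 4 was by far the highest, replicate 3 just above the DMSO libraries and replicate 2 among them. The identifiers found for skilb, pmepa1, ltbp1, tgfbr1a, tgfbr1b and acvr1c did not pass the filter.

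Some lists lay above 0 with and without SB431542 replicate 4, though edgeR called 0 of their members (0.0572% of all tested genes). For 20 matrix proteases and inhibitors the median log2 fold change was 0.41, or 0.24 without it. DESeq2 called 5 of them higher with all libraries and 0 without replicate 4, beside 1.9% and 0.483% of all tested genes. MMP9, a gelatinase, stood at 1.86, 0.857 and 1.35 CPM with DMSO and at 4.13, 2.52 and 7.06 CPM with SB431542 (DESeq2 adjusted p = 0.00539, and 0.135 without replicate 4). MMP14, the membrane-bound collagenase, stood at 13.9, 9.14 and 12.5 CPM with DMSO and at 21.1, 17.3 and 29.2 CPM with SB431542 (DESeq2 adjusted p = 0.0190, and 0.208 without it). Neither gene's groups overlapped, and replicate 4 was the highest library for each.

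For 45 immediate early and AP-1 genes the median was 0.27, or 0.23 without replicate 4. Of these, NR4A1, an orphan nuclear receptor gene, stood at 12.9, 5.85 and 11.2 CPM with DMSO and at 24.9, 16.3 and 36.1 CPM with SB431542, with no overlap (DESeq2 adjusted p = 0.00897, and 0.131 without replicate 4). The zinc finger factor gene egr1 stood at 0.797, 1.43 and 0.385 CPM with DMSO and at 2.00, 2.07 and 20.6 CPM with SB431542. All 3 SB431542 libraries were above the DMSO libraries, replicate 4 by far the most (DESeq2 adjusted p = 0.00539, and 0.507 without replicate 4). For 26 BMP ligands, Smads and targets the median was 0.23 and fell to 0.06 without replicate 4. ID1, a BMP target, stood at 112, 93.7 and 97.2 CPM with DMSO and at 142, 142 and 240 CPM with SB431542 (DESeq2 adjusted p = 0.0462, and 0.341 without replicate 4).

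Lists of detoxification and antioxidant genes, which leave out AIFM2 and GLRX5, gave 0 edgeR calls as well, beside 0.0572% of all tested genes. For 20 aryl hydrocarbon receptor and xenobiotic genes the median log2 fold change was 0.38, or 0.19 without SB431542 replicate 4, and 15 were above 0. For 32 glutathione and antioxidant genes it was 0.23, or 0.09, with 26 above 0, or 21 without replicate 4. Of all tested genes 50.4% were above 0, or 47.1% without it. Among the 32, 7 lay above all DMSO libraries and 2 below them, against 9.48% and 8.43% of all tested genes. GPX4 was 1 of those below, at 225, 217 and 283 CPM with DMSO and at 162, 194 and 144 CPM with SB431542 (edgeR adjusted p = 0.200). GSR, which regenerates reduced glutathione, stood at 9.43, 9.28 and 9.82 CPM with DMSO and at 19.6, 14.1 and 17.7 CPM with SB431542. The groups did not overlap (DESeq2 adjusted p = 0.0216, edgeR 0.100), and without SB431542 replicate 4 the DESeq2 adjusted p was 0.117. Off the list, gstp1.2, a glutathione transferase, stood at 255, 187 and 289 CPM with DMSO and at 574, 363 and 455 CPM with SB431542, 1.91-fold higher (DESeq2 adjusted p = 0.00573, and 0.0111 without replicate 4). Its DESeq2 call was lost without DMSO or SB431542 replicate 2.

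**Figure D4:**
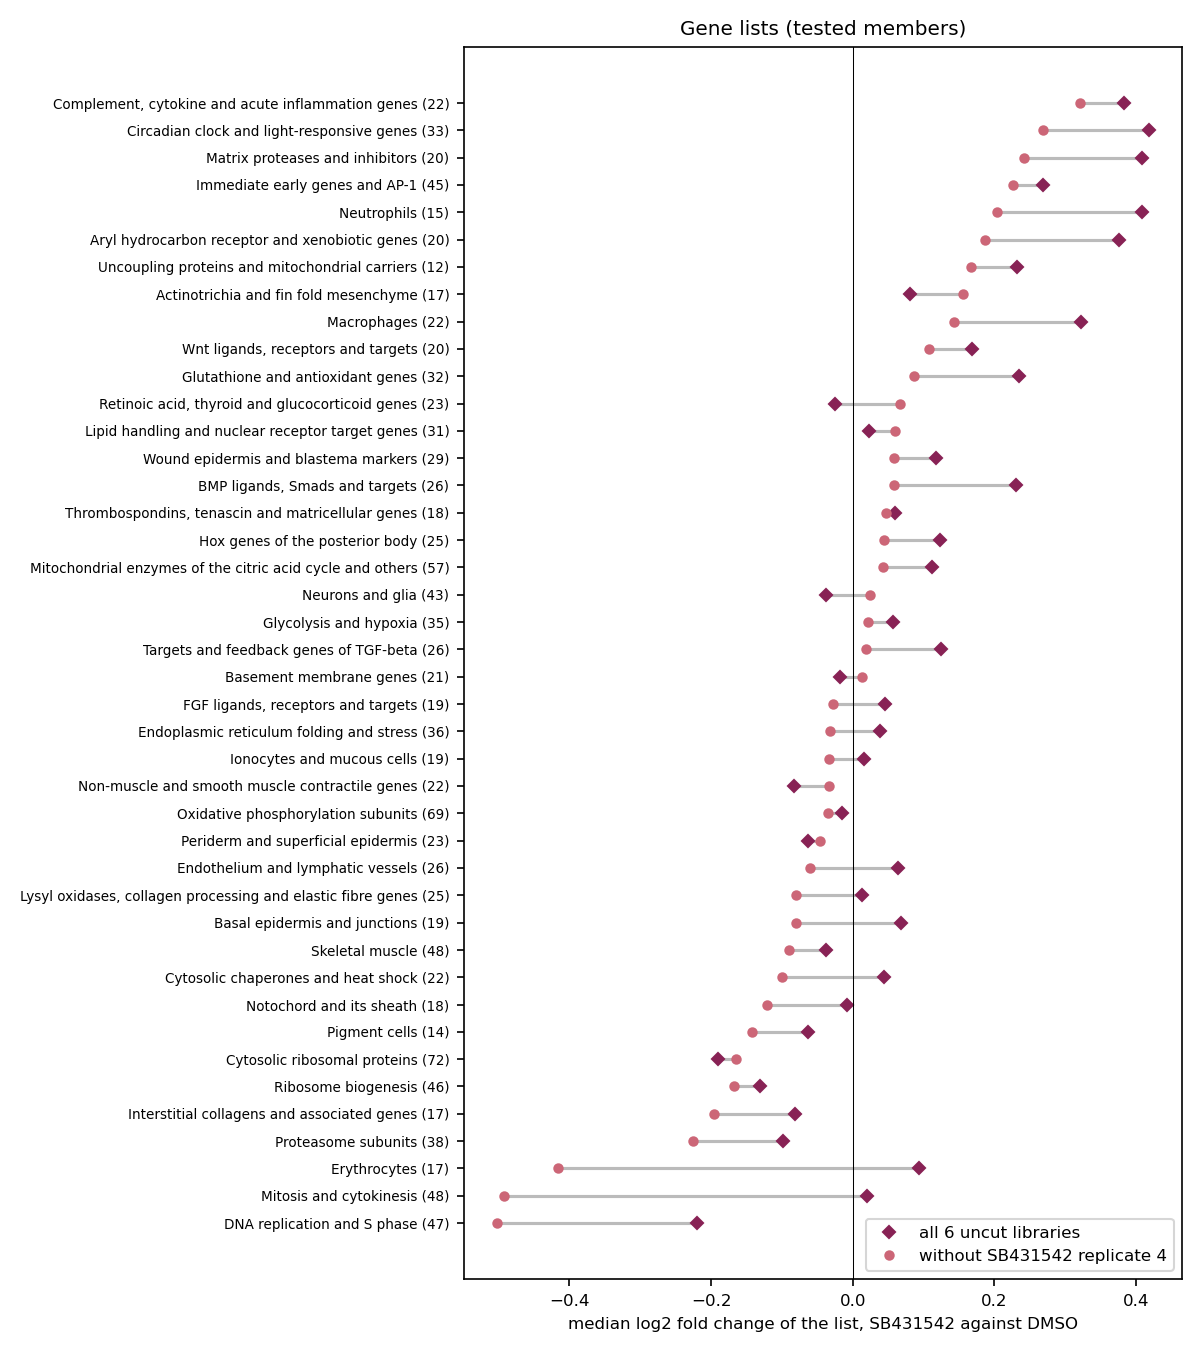
Median log2 fold change of SB431542 against DMSO in uncut tails for the 42 gene lists with at least 10 tested members (number tested in brackets), over all 6 libraries (diamonds) and without SB431542 replicate 4 (circles). The largest shifts between the fits are in mitosis, from 0.02 to -0.49, and erythrocyte genes, from 0.09 to -0.42.

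Most lists for the tissues of the tail had medians near 0, and that for cartilage and bone was lower. Its 9 tested genes had a median log2 fold change of -0.49 with all libraries and -0.49 without SB431542 replicate 4. Of these, 2 were above 0, or 1 without that library, against 50.4% and 47.1% of all tested genes. Below all DMSO libraries lay 3, or 5 without it, against 8.43% and 14.3% of all tested genes. Neither edgeR nor DESeq2 called any of the 9. The smallest edgeR adjusted p among its members with lower levels was 0.280, for SOST, a secreted inhibitor of bone formation. Members ran from a log2 fold change of -0.93 to 0.67. At an edgeR unadjusted p under 0.05, 1 was higher and 1 lower, against 9.88% and 5.92% of all tested genes. The other medians with all libraries, and without SB431542 replicate 4, were -0.04 and -0.09 for 48 skeletal muscle genes, -0.01 and -0.12 for 18 notochord genes and -0.06 and -0.05 for 23 periderm genes. They were 0.07 and -0.08 for 19 basal epidermis genes, 0.08 and 0.16 for 17 actinotrichia and fin fold genes and 0.06 and -0.06 for 26 endothelial genes. For 43 genes of neurons and glia they were -0.04 and 0.02, and for 14 pigment cell genes -0.06 and -0.14. EdgeR called 0 of these with or without SB431542 replicate 4. The medians were -0.08 for 17 interstitial collagen genes and -0.19 for 72 cytosolic ribosomal protein genes, or -0.20 and -0.17 without that library. For 22 macrophage genes the median was 0.32, or 0.14 without it, while their summed levels overlapped, 458 to 680 CPM with DMSO and 492 to 594 CPM with SB431542. For 15 neutrophil genes it was 0.41, or 0.20, and the summed levels were 369 to 511 and 260 to 423 CPM. Liver genes summed to 1417 to 1579 CPM with DMSO and 1781 to 2017 CPM with SB431542, with 3 of 19 liver identifiers tested and 3 at 0 in every uncut library. Nearly all of that sum was RBP4, the retinol carrier, whose log2 fold change was 0.36 (edgeR adjusted p = 0.253). The part of these cell types in other results was not tested.

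Cut tails were treated with the same compound and dose, and the effects in cut and uncut tails share no library. They share the estimate of spread, and deviations of same-numbered SB431542 libraries correlated between cut and uncut tails at 0.179 for replicate 2, -0.0294 for replicate 3 and 0.343 for replicate 4. All 8 genes called in uncut tails had the same sign in cut tails, a count given without the share over all tested genes. By edgeR, 12 genes were called in cut tails (0.0858%), and UCP2 was the 1 called in both: it rose 3.48-fold in cut tails (log2 1.80 ± 0.25, adjusted p = 0.00561). With uncut SB431542 replicate 4 out of the shared fit, 313 genes were called in cut tails (2.16%), and 4 of the 5 called in uncut tails were among them. For ucp3, GLRX5, AIFM2, MSMO1, C11H1orf50 and cry-dash the log2 fold changes in cut tails were 1.16, 1.00, 1.27, 2.26, 1.33 and 1.18, against 1.63, 1.19, 1.81, 3.16, 1.91 and 1.80 in uncut tails. DESeq2 called 330 genes in cut tails (2.36%) and shared 73 with uncut tails in the same direction, 22.5% of the uncut and 22.1% of the cut calls, and 0 in opposite directions.

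**Figure D5:**
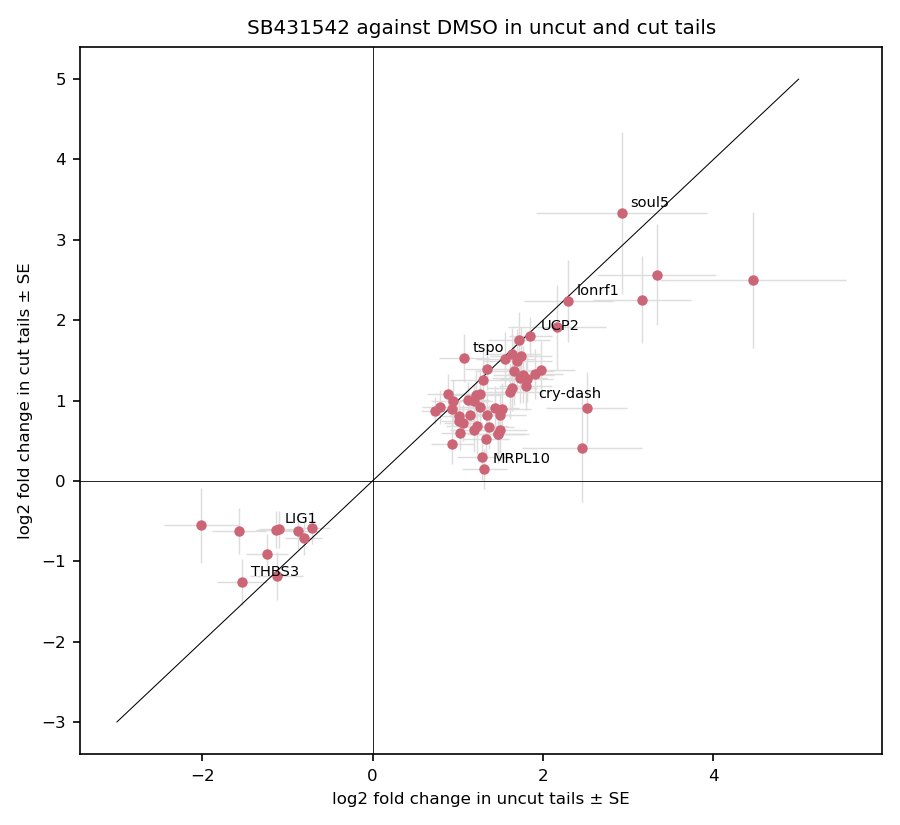
Log2 fold changes of SB431542 against DMSO in uncut (horizontal axis) and cut tails (vertical axis), with SEs derived from edgeR's F statistic. Shown are 65 of the 67 genes called by DESeq2 with and without uncut SB431542 replicate 4. PAOX and ENSDARG00000110075, which have a group at 0, are left out, and the line marks equal values. All points have the same sign in both, with a median size of 1.43 in uncut and 0.921 in cut tails over the 67 genes.

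All 67 genes called by DESeq2 with and without replicate 4 had the same sign in cut tails. Their uncut values chose them, so the median sizes of 1.43 and 0.921 are a description. The share of all tested genes with the same sign in cut and uncut tails is not given here, so the count of signs is a description too. Over all tested genes the log2 fold changes in uncut and cut tails had a Pearson correlation of 0.383, or 0.376 without uncut SB431542 replicate 4. The difference between the effects was tested directly. EdgeR called 0 genes for it, the lowest adjusted p being 0.457, and 618 had an unadjusted p under 0.05 (4.42%), while DESeq2 called 2 genes. Without uncut SB431542 replicate 4 edgeR and DESeq2 both called 0, and 486 had an unadjusted p under 0.05 by edgeR. The effect on UCP2 was larger in uncut tails by 0.05 on the log2 scale (interaction in edgeR's fit across all genes, unadjusted p = 0.876). MRPL10, 2.48-fold higher in uncut and 1.11-fold in cut tails, had an unadjusted interaction p of 0.00478, and for CACNA2D3 it was 0.0235. No gene named here can be called particular to uncut tails by that test.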

How the data were processed

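Poly(A) RNA of 100 pooled larval tails per sample was sequenced from its 3′ end (Lexogen QuantSeq 3′ FWD, per the labels), so levels do not depend on transcript length. Per-gene estimated counts, not normalized, were deposited by the authors for Ensembl identifiers; 23.1% to 26.7% of the values above 0 were fractional, so near-identical paralogues are less certain. Counts of AIFM2, cry5, PLA2G6, LIG1, NASP, OAT, SMAD7 and tgfb1a were fractional in all 6 uncut libraries. GRCz11 is the build named in the submitters' processing notes; the sources used here do not give the aligner or counter. Counts were rounded and tested with edgeR 4.0.16 in R 4.3.3 (quasi-likelihood F test, TMM, filterByExpr, robust, 1 fit of 4 group means, two-sided). The biological coefficient of variation was 0.261. DESeq2 1.42.0 and limma 3.58.1 were alternatives. Symbols matched 23598 of 30258 identifiers.

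Members and lists were chosen with earlier results of these data known. Genes were named if called, with a symbol, non-overlapping groups and 5 CPM or more on average in the higher group (likewise without SB431542 replicate 4), if among the 4 members of a list with the smallest adjusted p, or if fixed as TGF-β response or receptor genes; the 6 highest and 6 lowest of SB431542 replicate 4 and genes shared with cut tails were added. Genes called by DESeq2 with and without that replicate and UCP1 were named after their values were seen. The labels do not say that a replicate number marks a shared clutch or day, and the main fit did not use the numbers. A TGF-β response gene of that rule is not reported here.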

Additional observations from a re-analysis of the deposited data

How the results depend on the processing

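The 7 higher genes became 1 with median-of-ratios scaling, 1 with limma-voom, 1 with limma-voom and library weights, 2 with only the uncut groups fitted, 265 with DESeq2 and 548 with no count filter; the 1 lower gene became 0 with limma-voom with or without weights, 2 with only the uncut groups, 60 with DESeq2 and 202 with no filter. The cause was not tested. The replicate block gave 4 higher. Correlations of deviations were -0.0237 and 0.0855 for replicates 2 and 4 of the uncut groups, and -0.0498 to 0.343 over all same-numbered libraries. Whether the numbers mark a shared clutch or day was not tested. Leaving out 1 library in turn gave 0 to 405 higher and 0 to 160 lower genes by edgeR. By DESeq2 it gave 149 higher and 23 lower without DMSO uncut replicate 1, 54 and 7 without replicate 2, 92 and 16 without replicate 4, 172 and 46 without SB431542 uncut replicate 2, and 603 and 404 without replicate 3. Without SB431542 replicate 4, median-of-ratios scaling gave 4 higher, the replicate block 3, DESeq2 70 higher and 16 lower, and limma-voom 0 and 0. The interaction, with 0 calls, gave 2 with DESeq2, 55 with no filter, 2 with the replicate block without that library, 0 over edgeR's leave-outs, and 0, 4, 1, 5 and 2 over DESeq2's in the order above. Across 31 fits UCP2 kept a log2 fold change of 1.74 to 1.94 and was called in 26. ENSDARG00000110075 was called in 25, ucp3 and C11H1orf50 in 16, cry-dash in 14, and GLRX5, AIFM2 and MSMO1 in 13. Of other genes called in every DESeq2 fit, ndufa4b, PMPCB and THBS3 were called in 10 of the 31 and atad5a in 8. Genes such as MSMO1 rest on few reads. Median-of-ratios scaling moved the median log2 fold change of all genes from 0.0058 to -0.0069.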
